A study of Mus musculus with 2 samples.

Results

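The spots described here, called upper-layer spots, are 150 of the 2485 tissue spots of 1 mouse brain section, or 6.04% of them. They were chosen on measured values: each spot was scored by the mean, over Clec18a, Cux2, Rasgrf2, Stard8 and Kcnh5, of the natural log of 1 plus its UMIs per 10000, and the 150 highest scores were taken. A UMI (unique molecular identifier) stands for 1 captured molecule. A spot is a small barcoded area of the slide that can hold several cells of different types, or parts of cells, so the spots are described as a place in the section and not as a cell type.

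The study profiled brain sections of 6-month-old male mice with Visium CytAssist, which joins paired probes on each transcript within the section and carries the products to a slide of barcoded spots. Its labels name 1 sample of the G2-3 line, which expresses A53T alpha-synuclein, and 1 wild-type (WT) sample. The labels do not name the promoter of the transgene. The matrices under both labels were identical (0 of 8667725 entries differed, and all 2722 barcodes are shared), which is less than the sampling noise, so they were counted as 1 library with no genotype assigned, and G2-3 could not be set against WT.

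The library held 21695663 UMIs, and levels are given as CPM, the UMIs of a gene per 1000000 UMIs of its set of spots. Tissue spots were taken from the position list filed under WT, which marks 2487 spots, all with counts, and 2 of these had under 500 UMIs and were left out. The list filed under G2-3 marks 2969 spots as tissue, of which 751 have no counts in this library, and it marks 84 of the 150 upper-layer spots. With 1 section there are no replicates, so nothing below carries a test, a p-value or a standard error. Every interval is a 95% exact interval for counting error only. Where a gene is lower in a set of spots, fewer cells of a type and less RNA per cell cannot be told apart.

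The neocortex is built of layers that differ in their neurons. Upper-layer neurons send axons mainly to other cortical areas, layer 4 receives most thalamic input, and the deep layers project to targets below the cortex. Upper-layer identity is marked by transcription factors such as Cux1, Cux2, Pou3f2 and Pou3f3, and the deep layers by Fezf2, Tbr1 and Foxp2. Inhibitory neurons that make vasoactive intestinal peptide are known to be most frequent in the upper layers, while myelin thickens toward the white matter beneath the cortex.

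The score genes are given as a description only, since they chose the spots. Clec18a, a C-type lectin family gene, had 193 UMIs in the upper-layer spots, with 0 to 11 per spot, against 151 UMIs in the 2335 other tissue spots. Cux2, a homeobox transcription factor of upper-layer neurons, had 164 UMIs with 0 to 6 per spot, against 274. Rasgrf2, an exchange factor for Ras, had 286 UMIs with 0 to 9 per spot, against 760. All 3 genes were thus sparse in single spots, with a median of 1, 1 and 2 UMIs per upper-layer spot. Stard8, a GTPase-activating protein gene, had 137 UMIs with 0 to 7 per spot, against 229 in the other tissue spots. Kcnh5, a voltage-gated potassium channel, had 647 UMIs with 0 to 18 per spot, against 1370. Kcnh5 was seen in 144 upper-layer spots and was the score gene that most of them carried.

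The scores ran from 0.596 to 1.41, with a median of 0.749. The spots ranked 149 and 150 scored 0.597 and 0.596, and the next spots outside scored 0.595 and 0.592, so no gap separates the members from the rest. The score rested on 2 to 31 UMIs per spot, with a median of 9. Of the 150 spots, 30 carried all 5 score genes, 47 carried 4, 54 carried 3 and 19 carried 2. The upper-layer spots had 2100 to 22990 UMIs with a median of 11496, against a median of 6478 in the other tissue spots.

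The places of the spots fit the label for most of them and go against it for the rest. When spots within 2 array steps of each other were linked, 117 of the 150 formed 1 band. All 117 lay within 5 steps of the edge of the tissue, with 26, 34, 38, 15 and 4 spots at 1 to 5 steps, against 45.5% of all tissue spots. The band followed the rim of the section on one side, over array rows 11 to 57 and columns 85 to 124. The remaining 33 spots, called stray spots, were scattered, 23 of them with no other member within 2 steps. Of the 33, 14 lay within 5 steps of the edge (42.4%), near the share of all tissue spots. Among array neighbours, 43.6% were members around all 150 upper-layer spots, against 5.87% around all tissue spots. The shares around band spots (55.9%) and stray spots (2.08%) were in part fixed by the linking that defined these sets. The stray spots had a median of 5360 UMIs and of 4 score UMIs, against 12411 and 11 in the band. They are kept in the values over all 150 spots. The numbers of genes past 2-fold against other tissue and the deep cortex are also given for the band alone. Most gene and list values in those 2 comparisons are of all 150 spots only.

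**Figure D1:**
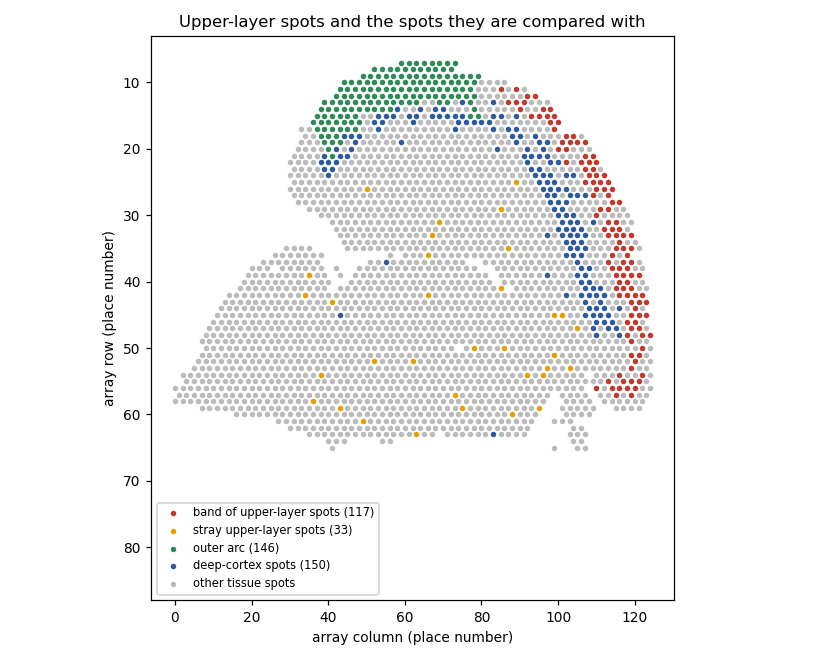
Array place of every tissue spot, by column and row number, with the band (117 spots), the stray upper-layer spots (33), the outer arc (146), the deep-cortex spots (150) and the other tissue spots in grey. The band follows the rim on the right, outside the strip of deep-cortex spots, and the stray spots lie scattered over the section.

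The stray spots differed from the band in neurons and in myelin, as sets that were defined after the map was seen. Igfn1, an immunoglobulin and fibronectin domain gene that was no part of the score, had 425 UMIs in the band, with 0 to 15 and a median of 3 per spot, and 0 UMIs in the stray spots. Lamp5, a lysosome-associated membrane protein family gene, had 335 UMIs in the band and 4 in the stray spots. Vip, the vasoactive intestinal peptide gene, had 282 UMIs in the band and 3 in the stray spots. Most other inhibitory neuron genes did not follow Vip. Of 7 measured, 2 had intervals above 0 and 4 below, where 681 and 473 of all 3755 genes did. Their median log2 ratio of band over stray was -0.53, with Gad2 at -1.18 and Sst at -0.53. The vesicular glutamate transporter gene Slc17a7, which marks cortical excitatory neurons, had a log2 ratio of band over stray of 2.04 (1.84 to 2.25). Of 10 genes of cortical excitatory neurons, 7 were at least 2-fold higher in the band, and their median log2 ratio was 1.63, against 0.08 over the 3755 genes compared. Myelin genes ran the other way. Mbp, myelin basic protein, was at 650 CPM in the band and at 6321 in the stray spots, and Mag, the myelin-associated glycoprotein, at 18.7 and 433. All 6 oligodendrocyte genes measured were at least 2-fold lower in the band than in the stray spots, and Gfap, an astrocyte filament gene, had a log2 ratio of -3.14 (-3.62 to -2.68). The genes at least 2-fold higher in the band made up 10.4% of all compared, and those as much lower 3.65%. These values go against the upper-layer label for the 33 stray spots as a set.

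The first comparison set the upper-layer spots against the rest of the tissue. By the lower bound of the interval, Kcnh4, Igfn1, Exph5, Ddit4l and Ryr1 led the higher genes, and by the upper bound C1ql2, Irx2, Hoxa4, Nxph3 and Tph2 led the lower ones. Of 10998 genes with at least 100 UMIs over both sets, 184 were at least 2-fold higher (1.67%) and 733 at least 2-fold lower (6.66%), and the median log2 ratio of all genes was -0.06. With the band alone in place of all 150 spots, 228 of 10975 genes passed 2-fold upward (2.08%) and 1000 downward (9.11%). Genes that vary together with the score genes over the section had to stand out in this comparison, so these shares describe the place and are not independent of how it was chosen. The UMIs were also split at random into 2 equal parts, with spots chosen on one and read in the other, at a lower gene minimum. There 103 of the 150 were chosen again, 196 genes passed 2-fold upward and 845 downward, and Lamp5 and Vip had log2 ratios of 2.01 and 1.84. The split removes shared counting error, but not the variation of genes together with the score genes over the section. The upper-layer spots held 1.36 times the UMIs of the average other tissue spot, and per spot in place of CPM 712 genes were higher and 362 lower.

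Kcnh4, another voltage-gated potassium channel, had 93 UMIs in the upper-layer spots, all of them in the band, against 124 in the other tissue spots. In CPM this was 55.3 against 6.42, or 8.61-fold higher, with a log2 ratio of 3.11 (2.70 to 3.51). Igfn1 was 5.08-fold higher, at 253 against 49.7 CPM, and was seen in 101 upper-layer spots. No stray spot had a UMI of either gene. Robo3, an axon guidance receptor of the roundabout family, was 4.96-fold higher, at 82.7 against 16.7 CPM. Wnt10a, a Wnt ligand, was 4.60-fold higher and Rspo1, a secreted enhancer of Wnt signalling, 5.74-fold higher, with 43 UMIs that all came from the band. Lamp5 was 4.22-fold higher, with 0 to 12 and a median of 2 UMIs per upper-layer spot and a median of 0 in the other tissue spots.

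Other leading genes rested on fewer UMIs or are less well known. Exph5, which encodes an effector of the Rab27 GTPases, was 6.38-fold higher on 55 UMIs. Ddit4l, an inhibitor of mTOR signalling, was 5.84-fold higher on 59 UMIs, and the calcium release channel gene Ryr1 was 6.08-fold higher on 45. Il12a, an interleukin subunit gene, was 5.39-fold higher on 38 UMIs. These genes had a median of 0 UMIs per upper-layer spot, so their folds are properties of the summed set and not of single spots. The transcripts C130074G19Rik and Gm11549, which the files do not describe further, were 4.12-fold and 4.54-fold higher, on 456 and 129 UMIs. Gm11549 was at 76.7 CPM in the upper-layer spots and at 67.0 in the deep cortex, a log2 ratio with an interval that includes 0.

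**Figure D2:**
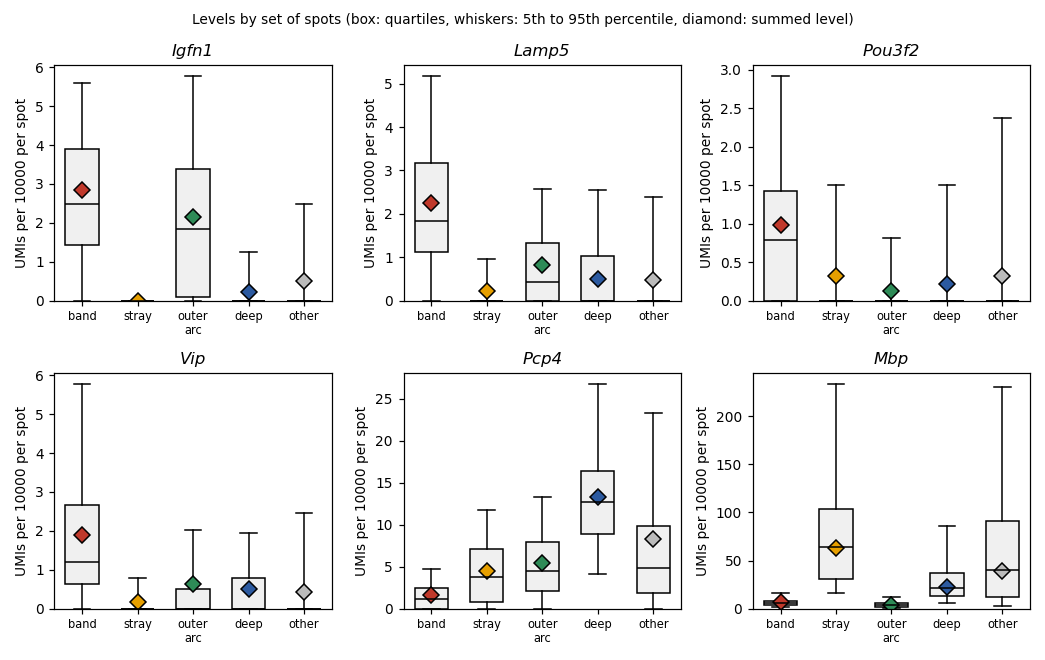
UMIs per 10000 in single spots of the band, stray spots, outer arc, deep-cortex spots and other tissue spots, for Igfn1, Lamp5, Pou3f2, Vip, Pcp4 and Mbp (box, quartiles with the median; whiskers, 5th to 95th percentile; diamond, summed level of the set). Igfn1, Lamp5, Pou3f2 and Vip have their highest diamond in the band, Igfn1 nearly as high in the outer arc, while Pcp4 is highest in the deep cortex and Mbp in the stray spots.

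The genes lowest in the upper-layer spots have known places elsewhere in the brain. C1ql2, a secreted C1q-like gene of dentate granule cells, was 20.7-fold lower, with 16 UMIs in the upper-layer spots against 3809. Irx2, a homeobox gene, was 15.5-fold lower. Tph2, the enzyme of serotonin synthesis in the brain, was 7.60-fold lower, with 18 UMIs against 1571. Hoxa4 and Hoxb5, transcription factors of the hindbrain and spinal cord, had 0 UMIs in the upper-layer spots against 270 and 203. With 3 counts put in for the 0 they were 7.84-fold and 5.89-fold lower, with upper bounds of the log2 ratio of -2.66 and -2.25. Nxph3, a neurexophilin of deep cortical neurons, was 9.54-fold lower on 11 UMIs. Cabp7, a calcium-binding protein gene, was 5.61-fold lower at 76.1 against 427 CPM, and Rftn1, a lipid raft protein gene, had a log2 ratio of -3.58 on 4 UMIs.

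The label was set beside gene lists of the cortical layers that share no gene with the score. The lists were chosen with earlier results of these data known. Layer genes that vary together with the score genes had to stand out, so the layer lists describe the spots and are no independent check. Of 17 upper-layer genes beside the score genes, 16 were measured. Their median log2 ratio to other tissue was 0.92, 8 were at least 2-fold higher and 1 at least 2-fold lower, against 1.67% and 6.66% of all genes. Mef2c, a transcription factor of neurons, had 0 to 23 and a median of 7.5 UMIs per spot and a log2 ratio of 1.58. Pou3f2 was at 90.4 against 32.1 CPM, with 0 to 8 and a median of 1 UMI per spot and a ratio of 1.49 (1.23 to 1.75). Cux1 was higher by 1.06, and Calb1, the calcium buffer calbindin, by only 0.51. Mdga1, a membrane anchor known from upper-layer neurons, went the other way, with a log2 ratio of -1.57 (-2.31 to -0.91) on 19 UMIs, and Wfs1, Syt17, Pou3f1 and Trpc6 had intervals that include 0.

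Layer 4 genes were also high. Of 6 measured, 5 were at least 2-fold higher, against 1.67% of all genes, with a median of 1.36. After Rspo1 these were Tmem215 at 1.82, Endou at 1.60, the nuclear receptor gene Rorb at 1.12 and the cytoskeletal gene Whrn at 1.07. Scnn1a, a sodium channel subunit used to mark layer 4, had a ratio of 0.03 (-0.69 to 0.67).

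Genes of the deep layers were low, where 6.66% of all genes were at least 2-fold lower than in other tissue. Of 9 layer 5 genes, 3 were at least 2-fold lower and all 9 had a ratio below 0, with a median of -0.82. The lowest were Crym, a thyroid hormone binding protein, at -2.82, Pcp4, a calmodulin regulator, at -2.08, and Fezf2 at -1.55. Of 9 layer 6 genes, 5 were at least 2-fold lower, with a median of -1.14, Foxp2 at -2.95 on 2 UMIs and Syt6 at -2.39 on 6. The layer 6 transcription factor Tbr1 was the exception, at 0.54 with an interval of -0.05 to 1.08. Of 5 layer 6b genes, 4 were at least 2-fold lower, with a median of -2.80, or -3.63 with the band alone. The hippocampal list had a median of -1.65 (5 of 9 at least 2-fold lower), and the subcortical and hindbrain list of -2.48 (10 of 11), with the dopamine transporter Slc6a3 at -3.69 on 2 UMIs and tyrosine hydroxylase Th at -2.48 on 4.

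**Figure D3:**
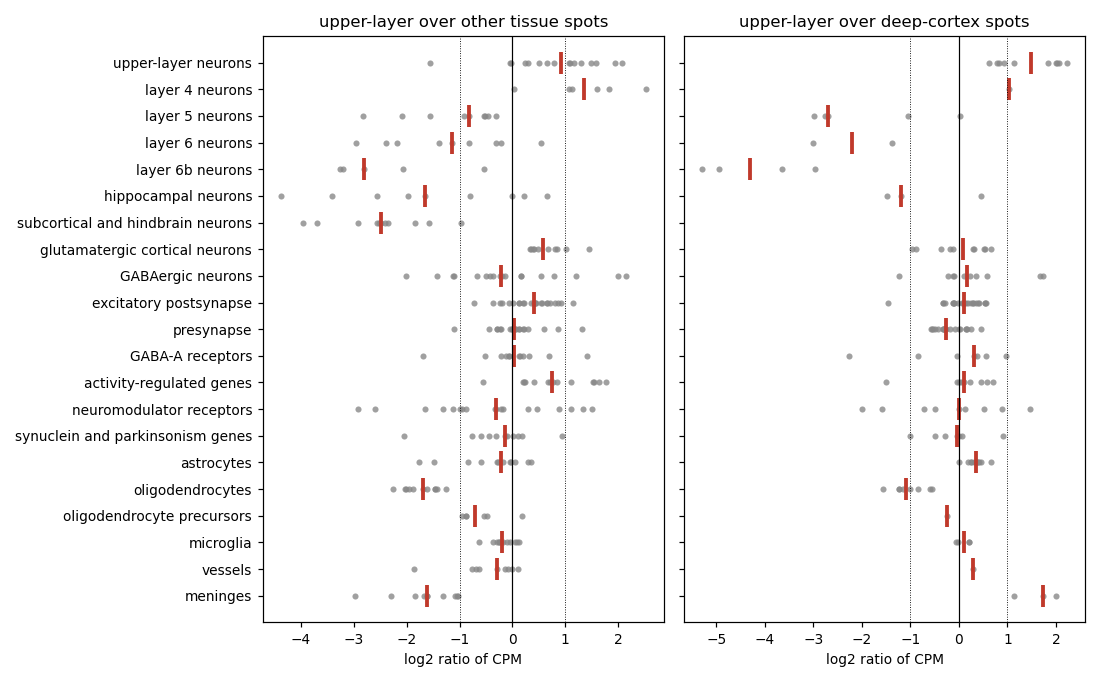
Log2 ratio of CPM of each measured list gene (grey points) and the median of each list (red bars), for the upper-layer spots over other tissue spots on the left and over deep-cortex spots on the right. Dotted lines mark 2-fold. The upper-layer median is 0.92 on the left and 1.49 on the right, the layer 6b median -2.80 and -4.30, and the meningeal median is -1.61 on the left and 1.73 on the right.

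The second comparison set the upper-layer spots against the deep cortex, to ask how outer and inner cortical spots of similar depth differ. Deep-cortex spots are the 150 other tissue spots with the highest score, made the same way, over Vxn, Myl4, Syt6, Hs3st4 and Foxp2. Of these 150, 129 formed 1 linked strip, and the median of the 150 was 9501 UMIs. The deep-cortex spots lay over columns 38 to 116, and 26 were in the columns before the middle of the tissue, where the band had 0 spots. The 2 sets thus differ in place along the rim as well as in layer. Of 5814 genes, 138 were at least 2-fold higher in the upper-layer spots (2.37%) and 110 at least 2-fold lower (1.89%), with all 10 score genes left out. With the band alone, 134 of 5566 genes were higher (2.41%) and 128 lower (2.3%). Both sets were chosen on layer genes, so differences in genes that vary together with either score are not independent of that choice.

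Smoc2, a secreted matrix-associated protein gene, had 120 UMIs in the upper-layer spots, with 0 to 6 per spot, against 4 UMIs in the deep-cortex spots, a 27.1-fold difference with a log2 interval of 3.37 to 6.66. Igfn1 had 425 against 35 UMIs, a log2 ratio of 3.46. Calb1 was 4.68-fold higher, with 0 to 12 and a median of 3 UMIs per upper-layer spot against a median of 0 in the deep cortex. It was the leading upper-layer gene here, though not against the tissue as a whole. Igfbp2, an insulin-like growth factor binding protein gene, was 6.53-fold higher, but 45 of its 166 UMIs came from the stray spots, and 26 of those from 1 spot. Kcnh4 was 7.65-fold higher, Cpne9, a copine, 5.85-fold, and Gucy1a1, a subunit of the nitric oxide receptor guanylate cyclase, 5.21-fold.

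Cartpt, a neuropeptide precursor gene, ranked among these genes for another reason. It was 8.27-fold higher, with 503 against 55 UMIs, but 472 of the 503 lay in 1 stray spot. The band held 30 Cartpt UMIs, at 20.1 CPM against 36.1 in the deep-cortex spots. The ratio of all 150 spots thus describes 1 spot outside the band.

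Of the 8 genes that led on the low side against the deep cortex, 4 are on the layer 6b list, the innermost layer: Ccn2, Nxph3, Nr4a2 and Cplx3. Ccn2, the connective tissue growth factor gene that marks layer 6b, was 39.0-fold lower, with 8 UMIs in the upper-layer spots and 282 in the deep-cortex spots. Nxph3 was 30.7-fold lower, with 11 against 306 UMIs. Nr4a2, an orphan nuclear receptor of layer 6b and the claustrum, was 12.6-fold lower, and the complexin gene Cplx3 7.79-fold lower. All 4 measured layer 6b genes were at least 2-fold lower (1.89% of all genes were), with a median of -4.30. Pcp4 was 6.73-fold lower, with 0 to 19 and a median of 2 UMIs per upper-layer spot against a median of 12. Hs3st2, a heparan sulfate sulfotransferase, was 6.94-fold lower, Rai14 was 8.59-fold lower, and Ighm, an immunoglobulin heavy chain gene, had 15 against 149 UMIs.

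All 10 upper-layer genes measured against the deep cortex were higher, 6 of them at least 2-fold (2.37% of all genes were), with a median of 1.49 against 0.00 over all genes. The directions of the layer lists here were in part fixed by the choice of both sets. After Calb1 these were Pou3f2 at 2.06, Lamp5 at 2.01, Cux1 at 1.83 and the netrin receptor gene Unc5d, with 102 against 23 UMIs. Of the layer 6 genes that did not choose the deep spots, Rprm had 16 against 116 UMIs and Tbr1 a log2 ratio of -1.38. In layer 5, Crym was at -2.98 and Fezf2 at -2.70, and Bcl6 at 0.03 (-0.41 to 0.47).

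Levels were also read step by step inward from the band, in spots nearer the band's inner side. Igfn1 was at 284 CPM in the band, at 189 at 1 step, at 65.2 at 2 steps and at 3.20 at 6 steps. Calb1 was at 369 in the band, at 246 at 1 step and at 96.8 at 2 steps, and was highest, at 460, in the 39 spots on the outward side. Vip had 188 CPM outward, 189 in the band, 144 at 1 step and 41.5 at 2 steps. All 3 were lower at 2 steps than in the band, and Vip was at 118 again at 6 steps. Pcp4 ran the other way, at 166 in the band, 526 at 1 step, 1057 at 2 steps and 1243 at 4 steps. Hs3st4 was highest at 5 steps, at 82.4 against 8.03 in the band, and Ccn2 also at 5 steps, at 72.7 against 3.34. Mbp was at 650 in the band and 1006 at 1 step, and reached 5132 at 6 steps. The profile and its genes were chosen after values were seen, and Hs3st4 helped to choose the deep-cortex spots, so the order of these maxima was in part fixed by the choice.

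**Figure D4:**
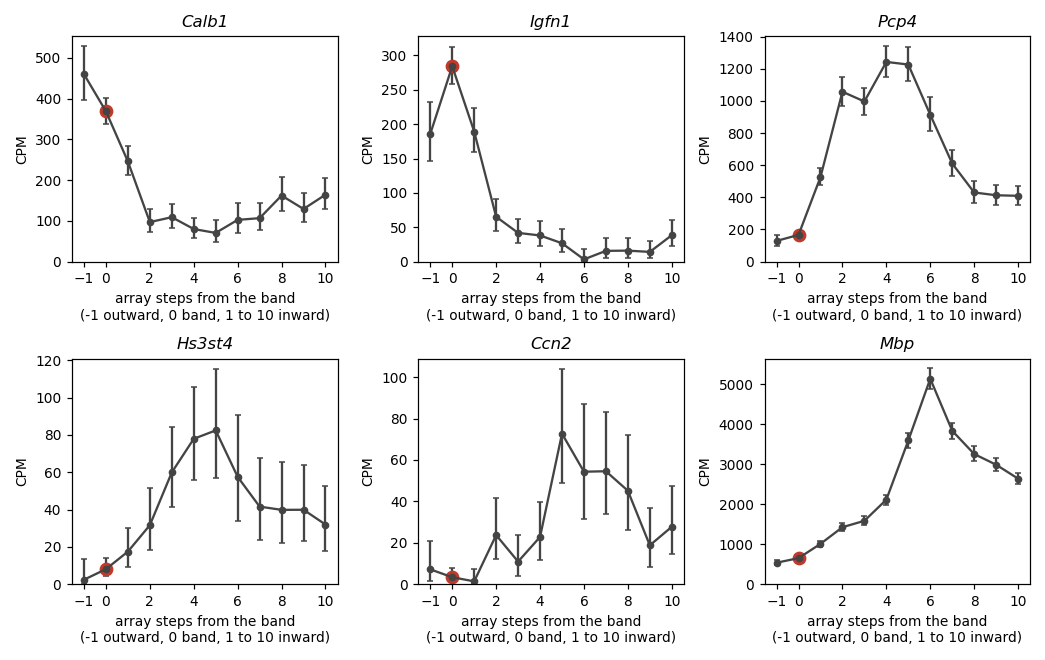
CPM in spots outward of the band (-1), in the band (0, red) and at 1 to 10 array steps inward, for Calb1, Igfn1, Pcp4, Hs3st4, Ccn2 and Mbp, with 95% counting intervals. Calb1 and Igfn1 are highest at or outside the band, Pcp4 is highest at 4 steps (1243), Ccn2 at 5 steps (72.7) and Mbp at 6 steps (5132).

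The band itself had a gradient in depth. The 60 band spots at 1 or 2 steps from the edge were set against the 57 at 3 to 5 steps, and 19 of 3391 genes were at least 2-fold higher in the outer spots (0.56%) and 20 at least 2-fold lower (0.59%). Atp2b4, a plasma membrane calcium pump, was 2.88-fold higher in the outer spots, with 221 against 78 UMIs. Igfbp2 was 3.09-fold higher and Trp53i11 2.68-fold higher there. Ptgds, a gene of the meninges and the only one of that list measured here, was at 1689 against 916 CPM, a log2 ratio of 0.88 (0.75 to 1.02), and its part in the other differences was not tested. Dgkb, a diacylglycerol kinase, was 2.33-fold higher, and the sorting receptor gene Sorcs3 2.86-fold. The inner spots led for Adra1d, an adrenergic receptor, which was 3.16-fold lower in the outer spots, and for Whrn, 2.78-fold lower, and the glutamate receptor auxiliary gene Cnih3, 3.02-fold lower. Pcp4 was 2.65-fold lower and the myelin gene Mobp 2.46-fold lower in the outer spots.

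Along the rim, fewer genes passed 2-fold. The 59 spots at rows up to 33 were set against the 58 at higher row numbers, and 6 of 3391 genes passed 2-fold upward (0.177%) and 8 downward (0.236%). Smoc2 was 3.17-fold higher at low rows, with 85 against 31 UMIs, and Lypd1, an inhibitor of nicotinic receptors, 2.37-fold higher. Tshz2, a zinc finger gene, was 6.73-fold lower at low rows, with 14 against 109 UMIs. Ptgds was 2.92-fold lower and the haemoglobin gene Hba-a2 2.65-fold lower there. Vip was higher at low rows by a log2 ratio of 1.01 (0.65 to 1.37), and 5 of the 6 activity-regulated genes measured had intervals above 0, against 7.17% of all genes (243 of 3391), with a median of 0.56.

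Outside the band, an arc of outer spots along the rim of the same section was drawn from spots that were not members. This outer arc comprises the 146 touching spots outside the deep-cortex strip and more than 3 steps from the band, over rows 7 to 21 and columns 36 to 79. The median depth was 12411 UMIs in the band and 12439.5 in the arc, and the median score was 0.796 in the band against 0.125 in the arc, where the highest was 0.550. Band spots were chosen for a high score and arc spots from the rest, so the direction of this gap was fixed. Differences in genes that vary together with the score genes are not independent of that choice. Of 5968 genes, 180 were at least 2-fold higher in the band than in the arc (3.02%) and 156 at least 2-fold lower (2.61%).

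Robo3 had 135 UMIs in the band against 7 in the arc, a 25.5-fold difference, and Ntn5, a netrin gene, 101 against 6, a 22.3-fold difference. Cpne9 had 109 against 12 UMIs, and Gm11549 was 12.6-fold higher in the band, the insulin-like growth factor binding protein gene Igfbp6 10.4-fold, and Stac2, a regulator of calcium channels, 9.77-fold. Kcnh4 was 9.46-fold higher and Pou3f2 8.04-fold. Igfn1 was shared by both, with a median of 3 UMIs per band spot and 2 per arc spot. Crym was 13.2-fold lower in the band, with 14 against 244 UMIs, and Ntng1, a membrane-anchored netrin, 13.5-fold lower. Reln, the extracellular glycoprotein reelin, was 8.49-fold lower, with 0 to 3 UMIs per band spot and 0 to 25 per arc spot. Kcng1, a potassium channel subunit, was 11.3-fold lower, Tekt5 9.42-fold, Wnt2b 9.15-fold, Nxph3 10.6-fold and the calcium sensor gene Hpcal1 6.98-fold.

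The upper-layer list was split between the band and the arc. Of 11 measured genes, 5 were at least 2-fold higher in the band, against 3.02% of all genes (among the 5, Pou3f2 at 3.01, Pou3f3 at 1.87, Cux1 at 1.59 and Lamp5 at 1.47). Wfs1, the wolframin gene, was at least 2-fold lower, at -1.28 (-1.71 to -0.87). Calb1 and Unc5d had intervals that include 0. Mef2c was at 0.52 (0.40 to 0.65), which was also the median of the list, against 0.02 over all genes, while Syt17 was at -0.56 and Lhx2 at -0.28. Of other cells, all 5 oligodendrocyte genes measured had a ratio above 0, with a median of 0.46, and both meningeal genes, with a median of 0.37 and Ptgds at 1299 against 966 CPM. None of these 7 genes was past 2-fold, both medians turned below 0 under other choices of spots (the oligodendrocyte median was -0.31 in the columns past the middle of the tissue and the meningeal median -1.51 with the spots marked as tissue in both lists), and their part in the differences between band and arc was not tested.

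All 10 excitatory neuron genes were higher in the upper-layer spots than in other tissue, with intervals above 0, as 1586 of all 10998 genes had (14.4%), and a median of 0.57. Nrgn, a postsynaptic calmodulin-binding protein, had 0 to 83 and a median of 14 UMIs per upper-layer spot against a median of 1 in other tissue, and a log2 ratio of 1.46 (1.39 to 1.52). Cck, a neuropeptide gene, had a ratio of 1.01, the kinase gene Camk2a of 0.84 and Arpp21 of 0.80. The same list had a median of 0.09 to the deep cortex, with Nrgn at 0.66 and Neurod6, a transcription factor, at -0.96. Slc17a7 had a ratio of 0.34 to other tissue and of -0.36 to the deep cortex.

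Inhibitory neuron genes went both ways, with Vip higher in both comparisons and Sst lower in both. Vip had 0 to 13 and a median of 1 UMI per upper-layer spot, was seen in 95 of the 150 and had a log2 ratio of 1.99 (1.79 to 2.19) to other tissue and of 1.72 (1.36 to 2.11) to the deep cortex. Crh, corticotropin-releasing hormone, had a ratio of 2.16 to other tissue on 40 UMIs, and Npy, neuropeptide Y, of 1.19. To the deep cortex, Npy had a ratio of 0.11 (-0.07 to 0.30). Calb2, calretinin, was lower than in other tissue, at -2.01, and higher than in the deep cortex, at 1.67, and 50 of its 95 UMIs lay in the stray spots. Sst, somatostatin, was at -0.23 against other tissue, or 0.21 per spot in place of CPM, and at -1.23 against the deep cortex, at 739 against 1729 CPM. The list as a whole had medians of -0.21 and 0.18, and the synthesis genes Gad1 and Gad2 had ratios of -0.50 and -0.19 to other tissue, with intervals that include 0.

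Between the band and the arc, the inhibitory genes differed again. Pvalb, parvalbumin, was at 175 against 36.4 CPM, a log2 ratio of 2.27 (1.88 to 2.66), and Vip at 189 against 64.3. Sst was lower in the band, at 704 against 1659, and Nos1, a nitric oxide synthase, had a ratio of -1.22. Npy, at 347 against 310, had an interval of -0.01 to 0.34.

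Genes that neurons switch on with activity were higher in the upper-layer spots than in other tissue. Of 14 measured, 5 were at least 2-fold higher, against 1.67% of all genes, with a median of 0.75. Arc, a regulator of synaptic strength, had 0 to 29 and a median of 4 UMIs per upper-layer spot against a median of 0, and a log2 ratio of 1.53 (1.41 to 1.64). The transcription factor genes Egr3, Egr1 and Fosb had ratios of 1.78, 1.64 and 1.54, Egr3 on only 23 UMIs, all in the band. Fos itself was at 0.22 (-0.13 to 0.56), and Nr4a3 was lower, at -0.55. The activity list had a median of 0.10 to the deep cortex, with Nr4a3 at 32.1 against 90.7 CPM and Arc at a ratio of 0.24, which was -0.075 as a mean over spots. Against the arc, Arc stood out, with 788 UMIs in the band and 216 in the arc and a ratio of 2.27 (2.05 to 2.49), while the list's median was 0.51 and Egr1 was at 1.09.

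**Figure D5:**
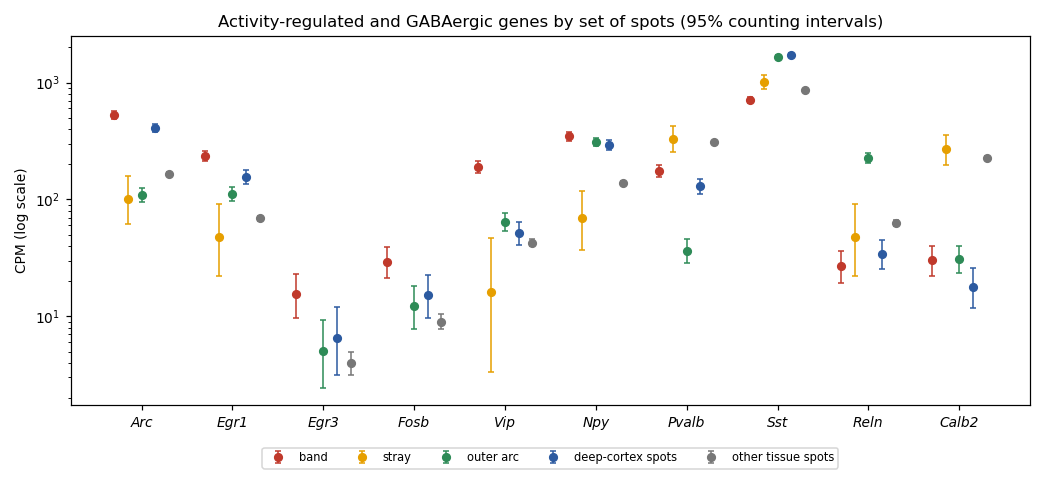
CPM (log scale) of activity-regulated and inhibitory neuron genes in the band, stray spots, outer arc, deep-cortex spots and other tissue spots, with 95% counting intervals, and no point where a set had 0 UMIs. Arc (527), Egr1 (236) and Vip (189) are highest in the band, Reln (227) is highest in the outer arc and Sst (1729) in the deep cortex.

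Few synaptic genes passed 2-fold. Of 25 postsynaptic genes, mostly of excitatory synapses, 20 had a ratio above 0 to other tissue and 16 an interval above 0, against the 14.4% of all genes. Their median was 0.41, but only Dlgap2, a scaffold gene, was at least 2-fold higher, at 1.15. Homer1 and Dlgap3, also scaffold genes, were at 0.92 and 0.87, and Lrrtm1, an adhesion gene, at -0.72. The glutamate receptor genes split, with Grin2b at 0.72, Grin1 at 0.45, Gria2 at 0.12 and Gria1 at -0.37, or 0.028 as a mean over spots. Against the deep cortex the list had a median of 0.11, and Lrrtm2 was the only gene past 2-fold, at -1.46. Presynaptic genes had a median of 0.04 to other tissue and of -0.26 to the deep cortex. Stx1a, a syntaxin of the release machinery, was at 1.32 and the active zone gene Bsn at 0.86 to other tissue, and Sv2c, a vesicle protein gene, at -1.10 on 7 UMIs. No presynaptic gene was past 2-fold against the deep cortex, with Syngr1 lowest at -0.57 and Bsn highest at 0.45.

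Receptor genes went both ways. Gabrd, the delta subunit of extrasynaptic GABA-A receptors, was higher than in other tissue, at 1.40 (1.07 to 1.73), with all of its 97 UMIs in the band, and at 0.96 against the deep cortex. Gabra5 was lower in both comparisons, at -1.69 and -2.27. Of 18 neuromodulator receptor genes measured against other tissue, 3 were at least 2-fold higher and 5 at least 2-fold lower, against 1.67% and 6.66% of all genes. Of these 18, 12 had a ratio below 0, and the median was -0.32. With the band alone, 4 of the 18 were at least 2-fold higher and 7 at least 2-fold lower, against 2.08% and 9.11% of all genes. The muscarinic receptor gene Chrm3 was at 58.3 against 20.6 CPM, and the cholecystokinin receptor gene Cckbr had a ratio of 1.34 to other tissue, the adrenergic receptor gene Adrb1 of 1.11. The dopamine receptor genes Drd5 and Drd2 were lowest, at -2.91 and -2.59, on 2 and 3 UMIs. Against the deep cortex the 9 neuromodulator receptor genes measured had a median of 0.01, with Adra1d at 1.46, the nicotinic subunit gene Chrna4 at -1.99 and the serotonin receptor gene Htr2a at -1.59.

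Genes of the synuclein family and of inherited parkinsonism were read as 1 list. Sncg had a log2 ratio of -2.04 to other tissue and Sncb of 0.10, which was -0.018 with spots chosen without Cux2. Lrrk2, a kinase gene linked to inherited parkinsonism, was higher, at 0.95 to other tissue, 0.91 to the deep cortex and with an interval of 0.49 to 1.52 in the band over the arc. The list of 11 synuclein and parkinsonism genes had a median of -0.14, close to the -0.06 of all genes. Unlike Lrrk2, the list was not higher in the other comparisons. Its median was -0.03 to the deep cortex, over 7 genes, and -0.42 in the band over the arc, over 8 genes. In the band over the arc, 2 of the 8 had intervals above 0 and 5 below, where 1157 and 1074 of all 5968 genes did.

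Genes of other cells were read as a check on what else the spots hold. Each of the 11 oligodendrocyte genes was lower by 2-fold or more than in other tissue (6.66% of all genes were), with a median of -1.69, or -2.87 with the band alone. Their summed level was 2338 CPM in the upper-layer spots, 1204 in the band and 11401 in the stray spots, against 4525 in the deep cortex and 7696 in other tissue. In single spots it ran from 0.922 to 46.0 UMIs per 10000 in the band and from 14.9 to 474 in the stray spots, and none of the 11 genes was at 0 in either set. Of 12 astrocyte genes, Gfap was at -1.77 and the water channel gene Aqp4 at -1.48, while the transporter gene Slc1a2 was at 0.35 and the median was -0.22. Of 12 microglial genes, none was past 2-fold in either direction, near the shares of all genes (1.67% upward and 6.66% downward), and the median was -0.20. Their summed level was 447 CPM in the upper-layer spots, 402 in the deep cortex and 503 in other tissue, and Ctss, the only one with an interval off 0, was at -0.63, or 0.051 with spots chosen without Kcnh5. The vessel list had a median of -0.30, with the smooth muscle actin gene Acta2 at -1.86.

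Meningeal genes depended on what the spots were set against. All 10 measured were at least 2-fold lower than in other tissue (6.66% of all genes were), with a median of -1.61. The collagen-binding gene Dcn was at -2.99 on 4 UMIs. Against the deep cortex all 3 measured were at least 2-fold higher (2.37% of all genes were), with Igf2 at 2.01, Ptgds at 1.73 and Mgp at 1.13. Ptgds had 0 to 302 UMIs per band spot with a median of 6, was at 1299 CPM in the band and reached 5275 in the spots outward of it. The summed list was at 1417 CPM in the band, from 0 to 792 UMIs per 10000 in single spots, with Ogn at 0, against 507 in the deep cortex, with Aldh1a2, Ogn and Slc22a6 at 0. The part of meningeal RNA in the differences between the band and the deep cortex was not tested.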

How the data were processed

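The authors deposited UMI counts per gene for each spot, whole numbers with no normalization. Per the file headers they come from Space Ranger 3.1.1. The genome build is mm10 per the submitters' processing notes. The sources used here give neither the probe set version nor the counting settings. Pixel positions and scale factors were left out.

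Spots marked as tissue in the list filed under WT with at least 500 UMIs were kept. UMIs were summed over a set of spots and scaled to its total (CPM). Genes needed at least 100 UMIs over both sets, and score genes were left out of the comparisons they had chosen. Log2 ratios carry exact conditional (Clopper-Pearson) 95% intervals for 2 Poisson sums, and a sum of 0 was set to 3 counts per set. Intervals and floor cover counting error only. No doublet caller and no deconvolution were run. Array steps count places on the hexagonal grid. The planned comparison of G2-3 with WT was not made, since the matrices are the same.

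Members, deep-cortex genes and the 21 gene lists were chosen with earlier results of these data known. Named genes were the 12 highest and 8 lowest by interval bound against other tissue, 8 and 8 against the deep cortex, up to 4 per list by size of ratio, and some genes these rules name are not reported here. The band, stray spots, arc, parts of the band and step profile, and further list genes such as Slc17a7, Sst, Fos and Gria1, were chosen after values were seen. The ratio code was tested on simulated data. Alternatives changed the number of members, the score, depth, scaling, gene minimum, tissue mask and side of the array. Python 3.11.15, numpy 2.4.6, scipy 1.17.1, pandas 2.3.3 and matplotlib 3.10.9 were used.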

Additional observations from a re-analysis of the deposited data

Results flagged for a closer look

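Barcodes outside the tissue marks, which the comparisons did not use, carried the score genes beside the band. On 40 such barcodes at 1 or 2 steps from the band, the 5 genes summed to 560.421 CPM (465 to 670, on 121 UMIs), a signal above the level on the 195 barcodes farther away, at 141 (110 to 179). The band itself was at 859 and the other tissue spots at 144, a gap whose direction was fixed because these genes chose the members. The barcodes were picked by nearness to that band, and no gene outside the score was read on them. The values are therefore a description only. The cause was not tested.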

How the results depend on the processing

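All values come from 1 section, so nothing here speaks to differences between animals, and the sparse score genes limit the choice of spots: leaving out each score gene in turn kept 98 (without Kcnh5) to 130 (without Clec18a) of the 150. No paired analysis was possible because both samples hold the same matrix. The planned array columns before the middle of the tissue left 9 members and gave no values, and the least number of spots and the alternative of the band alone were added after seeing the data. In these leave-one-out choices the genes at least 2-fold higher and lower numbered 137 to 190 and 601 to 746 against other tissue, 126 to 136 and 92 to 111 against the deep cortex, and 165 to 176 and 137 to 155 in the band over the arc, and the upper-layer and layer 6 medians were 0.88 to 0.95 and -1.16 to -0.79 against other tissue and 1.47 to 1.71 and -2.32 to -1.96 against the deep cortex. A minimum of 20 UMIs per gene, which tests more and sparser genes, gave 346 higher and 1176 lower against other tissue, 462 and 319 against the deep cortex and 520 and 406 in the band over the arc. UMIs per spot gave 712 and 362 against other tissue and an upper-layer median of 1.36. Against other tissue, the 250 highest scores gave 468 lower, the spots in both lists 384, and the columns past the middle of the tissue 107 higher and 413 lower. Values for the spots in both lists rest in part on the G2-3 list, where 751 of 2969 tissue spots have no counts in this library. In the band over the arc, choosing on one part of the UMIs and reading in the other, at a lower gene minimum, gave 241 lower and the columns past the middle of the tissue 61. The layer 6 median against the deep cortex, over few genes, was -3.14 with the 100 highest scores, -1.43 with the 250 highest, -3.15 with a pooled score and -3.18 in the columns past the middle of the tissue. Directions turned for the astrocyte median against other tissue (0.22 per spot), the hippocampal (0.20 at 20 UMIs per gene) and oligodendrocyte medians (0.24 in both lists) against the deep cortex, and, in the band over the arc, the oligodendrocyte median (-0.31 in the columns past the middle of the tissue) and the meningeal median, which was -0.29 with the 100 highest scores, -0.47 (without Stard8) to 0.54 with 1 score gene left out, -1.30 when chosen and read in separate UMIs and -1.51 in both lists. Among named genes against other tissue, Sst turned to 0.21 per spot and Gria1 to 0.028 as a mean over spots and 0.067 per spot, and leaving out 1 score gene gave -0.64 to 0.051 for Ctss and -0.018 to 0.12 for Sncb. Against the deep cortex, Arc turned to -0.075 as a mean over spots, -0.045 in the columns past the middle of the tissue and -0.080 to 0.26 with 1 score gene left out. The cause was not tested.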
